A study of Homo sapiens with 18 samples.

Results

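Sarcolipin (SLN) and phospholamban (PLN), 2 small regulators of the SERCA calcium pumps, and the 3 pump genes themselves (ATP2A1, ATP2A2 and ATP2A3) were followed in the human lung adenocarcinoma line A549 after TGFβ and after silencing of the atypical protein kinases C. The 5 genes were taken by symbol from the gene table of the array, 5 of 18377 genes tested, and each was measured by exactly 1 probe set that carried only its own symbol. SLN was selected on its log2 change after TGFβ in control cells, where it stood among the largest, so its values in the siControl arm are given as a description without a test. The other 4 genes were chosen for their known relation to it. One arm received a control siRNA (siControl), the other siRNA that targets PKCiota together with PKCzeta (siPKCiz); both were grown in 10% serum and then starved of it. Cells of either arm got no ligand (untreated), or a pulse of TGFβ at 250 pM lasting 1 h. After the pulse was washed off, incubation in 0.2% serum continued for 7 h or 23 h, which gave the 8 h and 24 h groups. This made 6 groups of 3 biological replicates, 18 whole-transcript arrays in all, with 200 ng of total RNA per array. The labels give neither a collection time nor a late serum level for the untreated cells. Time in culture, the 0.2% serum after the pulse and TGFβ therefore cannot be told apart. All arrays come from 1 cell line, and siPKCiz hits both kinases together, so their effects cannot be told apart.

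SERCA pumps move calcium from the cytosol into the endoplasmic or sarcoplasmic reticulum at the cost of ATP, and so end calcium signals and refill the store. ATP2A1 encodes SERCA1, the pump of fast-twitch skeletal muscle. ATP2A2 encodes SERCA2, whose long form is the housekeeping pump of most cells and whose shorter form serves the heart and slow muscle, and ATP2A3 encodes SERCA3, found in epithelial, endothelial and blood cells. Sarcolipin and phospholamban are short membrane peptides known mainly from striated muscle, where they bind the pumps and lower calcium uptake. The pump is released from inhibition by phospholamban when protein kinase A or the calmodulin kinase CaMKII phosphorylates phospholamban.

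In these cells SLN was far higher after TGFβ in both arms, ATP2A3 rose modestly at 24 h, and no change of PLN, ATP2A1 or ATP2A2 passed the test after TGFβ. RNA was taken from whole cultures, so more cells with a transcript and more of it per cell cannot be told apart. SLN on its linear scale of intensity stood at 200, 459 and 498 in untreated siControl cells (replicates 1, 2 and 3), at 1358, 1379 and 1456 at 8 h, and at 4394, 4877 and 4411 at 24 h. The arrays of the 3 conditions did not overlap, and the widest spread lay in the untreated group, where replicate 1 was well below the others. Among all genes 12.4% had 8 h arrays wholly above the untreated arrays, 11.9% had such 24 h arrays, and 7.3% had 24 h arrays wholly above those at 8 h; nothing is read from these shares for SLN in the arm that chose it. The described log2 change against untreated was 1.97 ± 0.27 at 8 h (SE from the fit over all 18 arrays; 3.91-fold) and 3.67 ± 0.27 at 24 h (12.7-fold), and the step from 8 h to 24 h was 1.71 ± 0.27 (3.26-fold). Left out of the untreated group, replicate 1 took the changes to 1.55 at 8 h and 3.25 at 24 h.

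SLN was chosen on its change in the siControl arm, and in the siPKCiz arm its rise was tested. Earlier results of these data were known when the genes were chosen, so this test is not fully independent of the choice. Intensity was 357, 368 and 401 in untreated cells, 1703, 1134 and 1081 at 8 h, and 6452, 3231 and 3771 at 24 h. Again no array of a later condition fell within the range of an earlier condition, and replicate 1 was the highest array at 8 h and at 24 h. SLN rose by 1.77 ± 0.27 log2 units at 8 h (3.41-fold, limma adjusted p = 0.000535) and by 3.52 ± 0.27 at 24 h (11.4-fold, limma adjusted p = 3.3e-07). It rose by a further 1.74 ± 0.27 between 8 h and 24 h (3.35-fold; limma adjusted p = 0.0046), a call that was lost when replicate 2 or replicate 3 was left out of every group (adjusted p = 0.215 and 0.206). The share of all 18377 genes called higher was 3.13% at 8 h, 4.65% at 24 h and 0.386% for the step from 8 h to 24 h in this arm. The share with arrays wholly above those of the earlier condition was 12.1%, 12.8% and 7.84%. Of the other 18376 genes, 6 had a larger rise than SLN at 8 h and 1 at 24 h, namely LCE3D, a late cornified envelope gene named here after its value was seen.

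**Figure D1:**
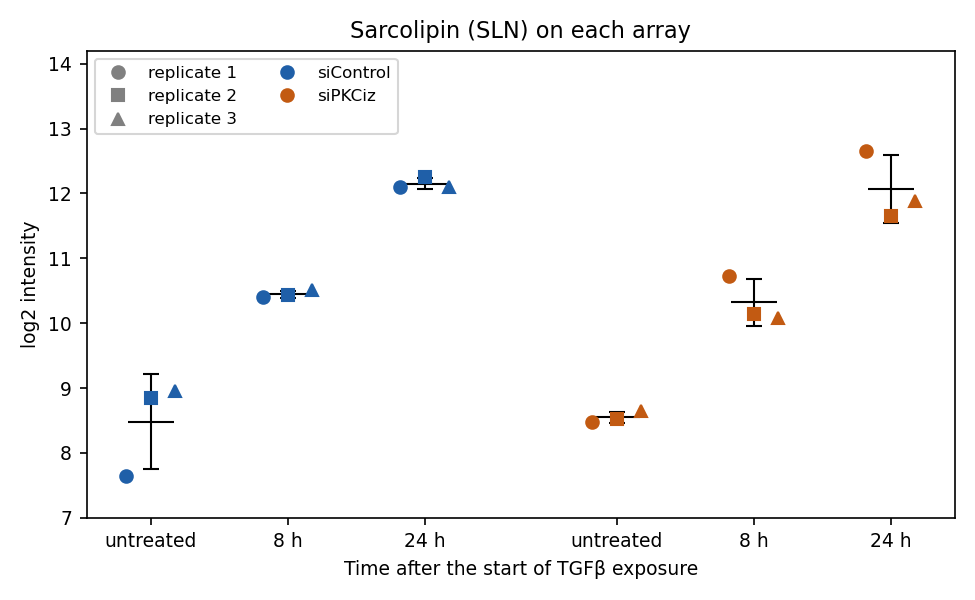
Log2 intensity of SLN on each of the 18 arrays, by condition, for siControl (blue) and siPKCiz (orange); symbols give the replicate number, the long dash the group mean and the bars 1 SD (n = 3). In both arms the level steps up from untreated (means 8.48 and 8.55) to 8 h (10.45 and 10.32) and 24 h (12.15 and 12.06), and replicate 1 is the lowest of the untreated siControl arrays and the highest of the treated siPKCiz arrays.

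Ordered by mean log2 intensity, SLN stood at 8.48 ± 0.73 (SD, n = 3) in untreated siControl, 8.55 ± 0.088 in untreated siPKCiz, 10.32 ± 0.36 in siPKCiz at 8 h, 10.45 ± 0.053 in siControl at 8 h, 12.06 ± 0.52 in siPKCiz at 24 h and 12.15 ± 0.085 in siControl at 24 h. The order therefore had 3 steps, one per condition. Within each step the arrays of both siRNA arms overlapped, and between steps none did. Relative to all probe sets of the same array, SLN moved from the 55th to 69.6th percentile without ligand to the 95.8th to 99th percentile at 24 h, over both arms.

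Phospholamban did not follow sarcolipin. Its intensity was 106, 80.0 and 99.8 in untreated siControl cells, 101, 98.7 and 118 at 8 h, and 92.0, 99.5 and 99.6 at 24 h. In siPKCiz it was 103, 88.2 and 103 in untreated cells, 97.5, 94.99 and 112 at 8 h, and 92.3, 92.2 and 99.5 at 24 h. All 18 values lay below the median of their array, and the conditions overlapped throughout. PLN differed from untreated by 0.16 ± 0.11 log2 units at 8 h (limma adjusted p = 0.433) and 0.04 ± 0.11 at 24 h (adjusted p = 0.902) in siControl, and by 0.05 ± 0.11 and -0.05 ± 0.11 in siPKCiz (adjusted p = 0.881 and 0.829). With array weights in the fit, the difference at 8 h in siControl was 0.35 and was called (limma adjusted p = 0.0241). At 24 h the 95% interval of the difference ran from -0.19 to 0.26 in siControl and from -0.27 to 0.17 in siPKCiz.

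Of the pumps, ATP2A1 was flat. Over the 18 arrays its intensity ran from 86.4 to 103, below the array median on 18 of 18. Values were 90.8, 94.6 and 87.8 in untreated siControl cells, 89.96, 94.8 and 93.1 at 8 h and 98.0, 90.2 and 86.4 at 24 h. In siPKCiz they were 94.4, 102 and 89.4 without ligand, 97.8, 103 and 90.8 at 8 h and 92.6, 96.8 and 99.8 at 24 h. At 24 h ATP2A1 differed from untreated by 0.01 ± 0.075 log2 units in siControl (95% interval -0.15 to 0.16; limma adjusted p = 0.977) and by 0.02 ± 0.075 in siPKCiz (-0.14 to 0.18; adjusted p = 0.901). The arrays of every condition overlapped those of every other within each arm.

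ATP2A2, the housekeeping pump, was bright on every array, between the 98.9th and 99.4th percentile. Intensity in siControl was 8440.4, 7440.1 and 6233 without ligand, 7116, 6701 and 7268 at 8 h, and 6738, 6571 and 6596 at 24 h. In siPKCiz it was 6766, 8349 and 8040.1 without ligand, 7760.3, 8179.5 and 8421 at 8 h, and 6962, 6149 and 7862 at 24 h. The 3 siControl arrays at 24 h lay close together, inside the range of the untreated arrays. ATP2A2 differed from untreated by -0.06 ± 0.11 log2 units at 8 h and -0.14 ± 0.11 at 24 h in siControl (limma adjusted p = 0.824 and 0.491), and by 0.08 ± 0.11 and -0.14 ± 0.11 in siPKCiz (adjusted p = 0.8 and 0.46). The 95% interval at 24 h was -0.37 to 0.08 in both arms, so a fall of up to that lower bound lay within it.

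ATP2A3 was the pump that moved. Intensity in siControl was 310, 307 and 314 without ligand, 385, 262 and 312 at 8 h, and 408, 482 and 419 at 24 h. Every array at 24 h was above every untreated and every 8 h array, as for 11.9% and 7.3% of all genes. In siPKCiz the values were 276, 277 and 262 without ligand, 319, 297 and 293 at 8 h, and 296, 406 and 394 at 24 h. The treated arrays of siPKCiz all lay above the untreated arrays at 8 h and at 24 h (12.1% and 12.8% of all genes), but replicate 1 at 24 h fell within the 8 h range.

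ATP2A3 rose at 24 h by 0.49 ± 0.12 log2 units in siControl (1.40-fold; limma adjusted p = 0.0125) and by 0.41 ± 0.12 in siPKCiz (1.33-fold; limma adjusted p = 0.0383). In either arm each array at 24 h lay above every untreated array, as given above with the share of all genes. At 8 h the differences were 0.03 ± 0.12 in siControl (limma adjusted p = 0.944) and 0.16 ± 0.12 in siPKCiz (adjusted p = 0.59). The step from 8 h to 24 h was 0.46 ± 0.12 in siControl (limma adjusted p = 0.0564) and 0.26 ± 0.12 in siPKCiz (adjusted p = 0.421). Both calls at 24 h are near the threshold. In siControl the call was lost without replicate 2 at 24 h (0.41; adjusted p = 0.0711), or without replicate 2 or 3 in every group (adjusted p = 0.161 and 0.151). In siPKCiz it was lost with median centring (0.39; adjusted p = 0.0519), with only the arrays compared (adjusted p = 0.055) and without any of the untreated arrays or replicate 2 or 3 at 24 h (adjusted p from 0.0764 to 0.151). It was also lost without replicate 2 or 3 in every group (0.34 and 0.33; adjusted p = 0.233 and 0.421). Without replicate 1 in every group both rises were larger, 0.54 in siControl (limma adjusted p = 0.00115) and 0.57 in siPKCiz (adjusted p = 0.00122). The step from 8 h to 24 h was then called in siControl (0.65; limma adjusted p = 0.0011) and in siPKCiz (0.44; adjusted p = 0.0359), and in siControl also with array weights, quantile normalization or the filter on dim probe sets (adjusted p = 0.00785, 0.0411 and 0.0445).

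Of the 4 genes other than SLN, 1 was therefore called at 24 h in each arm, where 12.3% of all genes were called in siControl and 10.7% in siPKCiz, and 0 were called at 8 h, where 11.4% and 6.48% were. For the step from 8 h to 24 h, 0 of the 4 were called in either arm, against 2.41% of all genes in siControl and 0.805% in siPKCiz. The comparisons within an arm share its untreated or 8 h arrays. The median change over all genes lay within 0.011 log2 units of 0 in each of these comparisons.

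**Figure D2:**
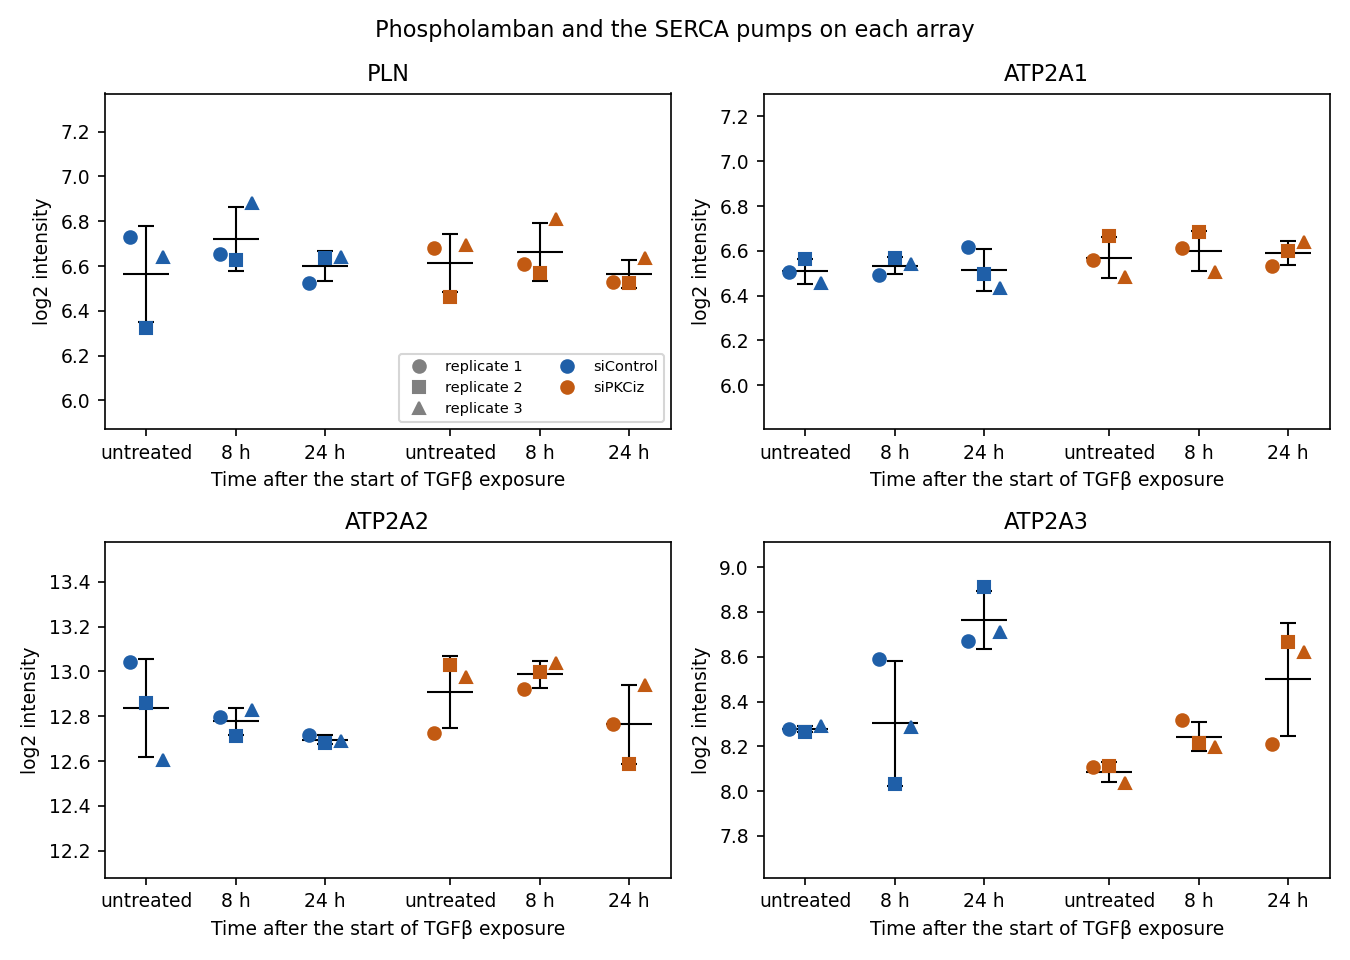
Log2 intensity of PLN and the 3 SERCA pump genes on each array, drawn as for SLN, with each panel spanning 1.5 log2 units around the gene's own mean. Only ATP2A3 has 24 h arrays that all lie above the untreated arrays in both arms; PLN, ATP2A1 and ATP2A2 overlap between conditions.

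**Figure D3:**
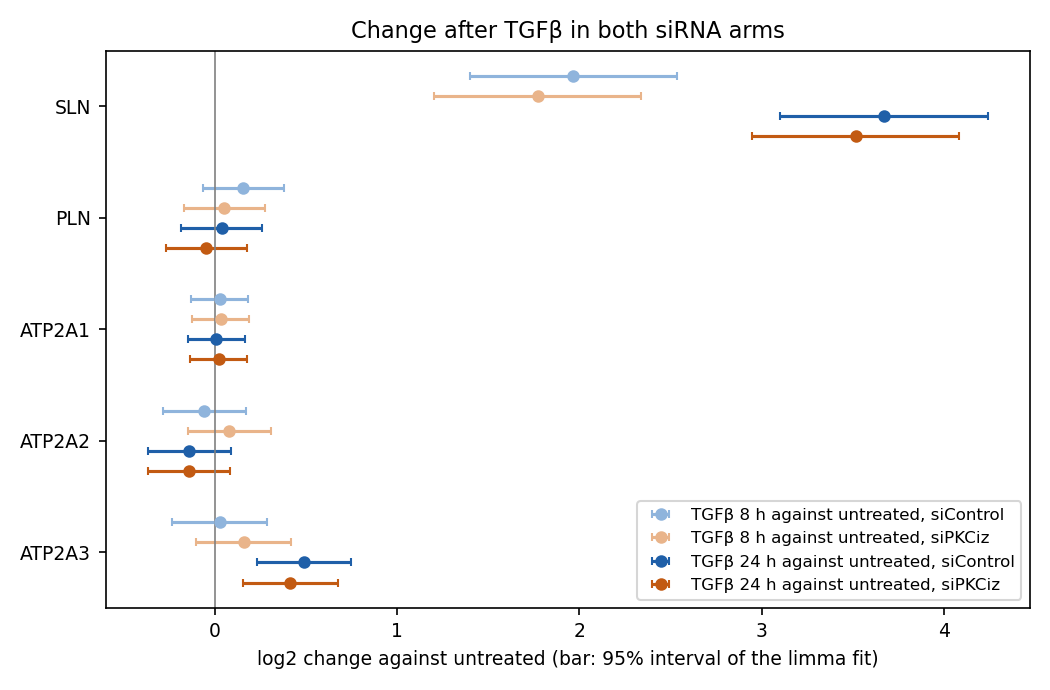
Log2 change after TGFβ of the 5 genes at 8 h and 24 h in both arms (points) with the 95% interval of the limma fit (bars). SLN lies between 1.77 and 3.67, ATP2A3 at 24 h at 0.49 and 0.41 with intervals above 0, and the intervals of PLN, ATP2A1 and ATP2A2 include 0; the siControl values of SLN are a description, since they chose the gene.

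The siRNA comparison asked whether the kinases alter the level of these genes or their response to TGFβ. The knockdown was checked first: PRKCI, which encodes PKCiota, was at 17.4% to 23.3% of its same-numbered siControl array on all 9 siPKCiz arrays. PRKCZ, which encodes PKCzeta, was at 33.1% to 40.0% in replicates 2 and 3 but at 91.4%, 82.3% and 68.2% in replicate 1 (untreated, 8 h and 24 h). Between same-numbered arrays the fall of PRKCZ was thus smallest in replicate 1. In each condition replicate 1 held the lowest siControl array (265, 309 and 302) and the highest siPKCiz array (242, 254 and 206). Over all arrays PRKCZ in siPKCiz differed from siControl by -1.07, -1.04 and -1.10 log2 units (limma adjusted p = 0.0182, 0.018 and 0.0167). Replicate numbers here name the samples and were not found to pair them across groups.

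The rise of SLN did not differ detectably between the arms. The interaction of siRNA and TGFβ, siPKCiz minus siControl, was -0.20 ± 0.38 log2 units at 8 h (95% interval -1.001 to 0.61; limma adjusted p = 1) and -0.16 ± 0.38 at 24 h (-0.96 to 0.65; adjusted p = 1). The intervals are wide, and these interactions use the siControl arrays on which SLN was chosen. In the fit no gene was called in either interaction (0% of 18377). An unadjusted limma p under 0.05 was found for 625 and 705 genes, a smaller share than the 0.05 of all genes due where nothing differs. With array weights 0 and 1 were called. Interactions of the other 4 genes lay between -0.10 and 0.14 log2 units and none was called (limma adjusted p = 1 for each).

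The level of SLN in siPKCiz against siControl depended on replicate 1. Relative to the siControl array with the same number, SLN was at 179%, 125% and 147% in replicate 1 (untreated, 8 h and 24 h), at 80.0%, 82.3% and 66.3% in replicate 2, and at 80.5%, 74.3% and 85.5% in replicate 3. Without regard to the numbers, the siPKCiz arrays of replicates 2 and 3 lay below every siControl array at 8 h and at 24 h, and that of replicate 1 above every siControl array. Among untreated cells the siControl array of replicate 1 was the lowest of all 6. Over all genes too, the arrays of replicate 1 stood apart in each of the 6 groups. Replicates 2 and 3 correlated at r = 0.996 to 0.998, and replicate 1 with either of them at 0.992 to 0.995. Over all arrays the difference was -0.05 ± 0.16 log2 units as the mean of the 3 conditions (95% interval -0.38 to 0.28; limma adjusted p = 0.854), and 0.07, -0.13 and -0.09 ± 0.27 in untreated, 8 h and 24 h cells (adjusted p = 0.924, 0.832 and 0.931). Without replicate 1 in any group the mean difference was -0.36 ± 0.057 (limma adjusted p = 0.000166), with -0.32 untreated, -0.36 at 8 h and -0.41 at 24 h. These differences use the siControl arrays on which SLN was chosen, and replicate 1 was singled out after its values were seen, so the p-value is not independent evidence of a difference. Replicate 1 is also the replicate in which PRKCZ was least reduced between same-numbered arrays. The part of this in the result was not tested. The rise of SLN after TGFβ in siPKCiz was called with and without it, 3.18 log2 units at 24 h without replicate 1 (limma adjusted p = 1.58e-11).

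**Figure D4:**
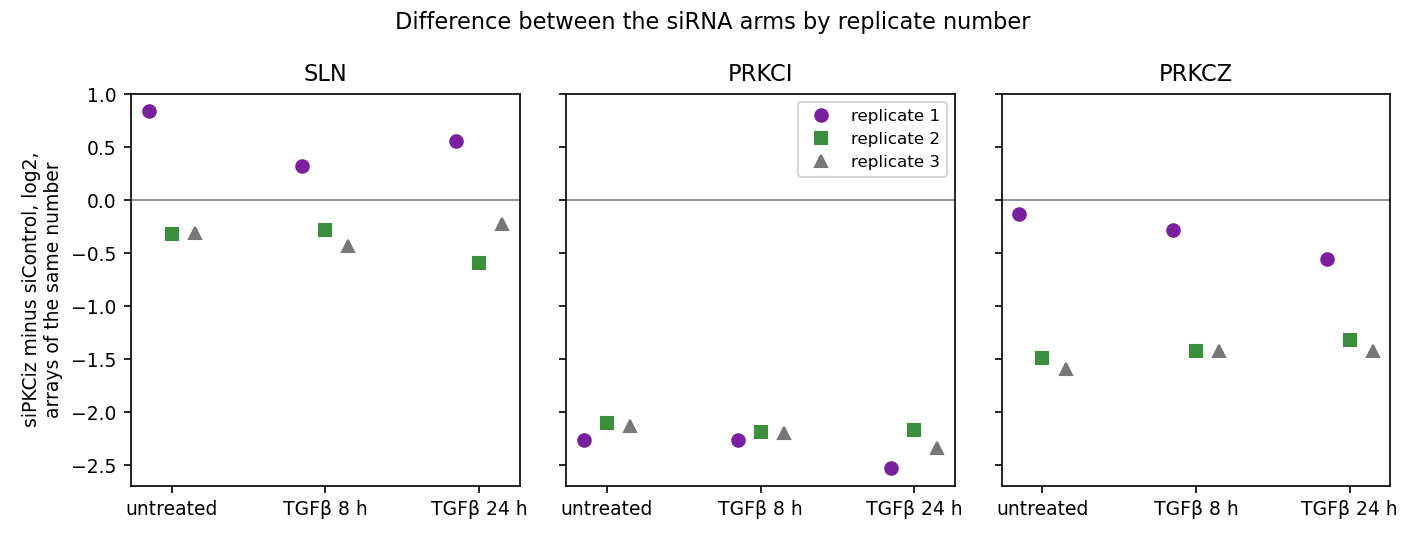
Difference between the siPKCiz and siControl arrays of the same number, in log2 units, for SLN, PRKCI and PRKCZ in each condition, with the symbol giving the replicate number. PRKCI falls alike in all replicates; PRKCZ falls least in replicate 1, and SLN is above 0 in replicate 1 (0.33 to 0.84) and below 0 in replicates 2 and 3 (-0.23 to -0.59).

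Among the pumps, no siRNA difference passed the test in the fit, where 3.58%, 5.41% and 3.19% of all genes were called in untreated, 8 h and 24 h cells and 19.9% in the mean of the conditions. ATP2A2 was 0.21 ± 0.11 log2 units higher in siPKCiz at 8 h with arrays that did not overlap (12.3% of all genes; limma adjusted p = 0.273), and 0.12 ± 0.062 higher in the mean (adjusted p = 0.206). The mean difference was called with quantile normalization (0.13; adjusted p = 0.0453), with array weights (0.15; adjusted p = 0.0447) and without replicate 1 in every group (0.20; adjusted p = 0.0308), while without replicate 3 in every group it was 0.035 and not called (adjusted p = 0.839). ATP2A3 was lower in siPKCiz by 0.19 ± 0.12 without ligand and by 0.27 ± 0.12 at 24 h with arrays that did not overlap (10.4% and 9.08% of all genes; limma adjusted p = 0.453 and 0.305), and its mean difference was -0.17 ± 0.072 (adjusted p = 0.0985). That mean was called with quantile normalization (-0.21; limma adjusted p = 0.0396) with array weights (-0.16; adjusted p = 0.0476) and without replicate 2 of siControl at 8 h (-0.22; adjusted p = 0.0304), while without replicate 1 in every group it was -0.11 and not called (adjusted p = 0.164). PLN and ATP2A1 differed by -0.01 ± 0.061 and 0.07 ± 0.043 in the mean (limma adjusted p = 0.891 and 0.29).

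The rest of the calcium machinery was read from lists of 73 further genes, 67 of them measured. After 24 h of TGFβ, 7 of the 67 were called higher and 5 lower in siControl (median change 0.03 log2 units), where 5.85% and 6.46% of all genes were called in those directions. In siPKCiz 1 was called higher and 4 lower (median 0.00; 4.65% and 6.09% of all genes). The genes called in both arms at 24 h were ORAI2, ATP2B1, ASPH, MCU and CAMK2D. At 8 h, 4 were called higher and 5 lower in siControl, against 5.17% and 6.18% of all genes, and 1 higher and 3 lower in siPKCiz, against 3.13% and 3.35%. The counts fell with fewer arrays. The share of all genes called was not taken with arrays left out, so nothing particular to calcium genes is read from the falls. Without replicate 2 in every group 3 calcium genes were called at 24 h in siControl and 2 in siPKCiz, and 1 in each arm at 8 h. Without replicate 3 in every group 6 were called at 24 h in siControl, and 4 and 0 at 8 h in siControl and siPKCiz. Of the single arrays, replicate 2 of siControl at 24 h took its count to 7, replicate 1 of siPKCiz at 24 h to 3, and untreated replicate 3 of siPKCiz to 2 at 8 h.

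The kinase and phosphatase list held the largest of these changes. CAMK2D, a catalytic subunit of CaMKII, fell by 0.96 ± 0.15 log2 units in siControl (1.94-fold; limma adjusted p = 0.000268) and by 1.01 ± 0.15 in siPKCiz (2.01-fold; adjusted p = 0.000202) at 24 h; the other 13 of the 14 measured members were not called. At 8 h CAMK2D had fallen by 0.78 and 0.72 (limma adjusted p = 0.00189 and 0.00619). For mitochondrial uptake, MCU, the pore of the calcium uniporter, fell by 0.51 ± 0.078 in siControl and by 0.58 ± 0.078 in siPKCiz at 24 h (limma adjusted p = 0.000188 and 6.94e-05). MCUB, a subunit that lowers uniporter activity, rose by 0.60 ± 0.11 in siControl (adjusted p = 0.000737), and its value in siPKCiz, 0.30, was not called. The other 5 of 7 measured members of that list were not called at 24 h.

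Of 6 measured plasma membrane and Golgi pumps, ATP2B1, a plasma membrane calcium pump, fell at 24 h by 0.47 ± 0.14 log2 units in siControl (limma adjusted p = 0.0382) and by 0.51 ± 0.14 in siPKCiz (adjusted p = 0.0264), after a fall of 0.63 ± 0.14 at 8 h in siControl (adjusted p = 0.00609). The sodium-calcium exchanger SLC8A1 fell by 0.47 ± 0.12 in siControl (limma adjusted p = 0.0157). Its log2 means there, 6.85 untreated and 6.38 at 24 h, were both below the array median. In siPKCiz it was not called, with means of 6.47 and 6.44. For store-operated entry, the channel gene ORAI2 rose by 0.38 ± 0.083 in siControl and 0.35 ± 0.083 in siPKCiz at 24 h (limma adjusted p = 0.00461 and 0.00909), and the channel gene TRPC1 rose by 0.21 ± 0.066 in siControl (adjusted p = 0.0428). ORAI3 fell at 8 h by 0.43 and 0.36 (limma adjusted p = 0.011 and 0.0451). Of 6 release channels, ITPR2, an inositol trisphosphate receptor, rose in siControl at 24 h by 0.45 ± 0.11 (limma adjusted p = 0.00889). The other calcium genes called at 8 h in siControl were JPH2, MCUB, ORAI2 and SLC8B1, higher by 0.54, 0.49, 0.36 and 0.31, and MCU and ASPH, lower by 0.45 and 0.38. In siPKCiz at 8 h they were ORAI2, higher by 0.36, and MCU, lower by 0.48.

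Among proteins of the reticulum itself, 1 of 12 luminal calcium binding genes was called at 24 h in siControl, CALU (0.31 ± 0.078; limma adjusted p = 0.0111), and 0 in siPKCiz. Of 10 junctional and membrane genes, JPH2 and JPH3, junctophilins that tether the reticulum to the plasma membrane, rose in siControl by 0.38 ± 0.10 and 0.40 ± 0.080 (limma adjusted p = 0.0193 and 0.00235). The log2 means of JPH3 there, 6.47 untreated and 6.87 at 24 h, were both below the array median. ASPH, whose locus encodes junctin and an aspartate hydroxylase, fell by 0.45 ± 0.095 in siControl and 0.48 ± 0.095 in siPKCiz (limma adjusted p = 0.00315 and 0.00254). ARLN, which encodes another short SERCA-binding peptide, was -0.15 in siControl and -0.09 in siPKCiz at 24 h and was not called, so of the 3 measured peptides of this kind, SLN was the one called in siPKCiz.

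**Figure D5:**
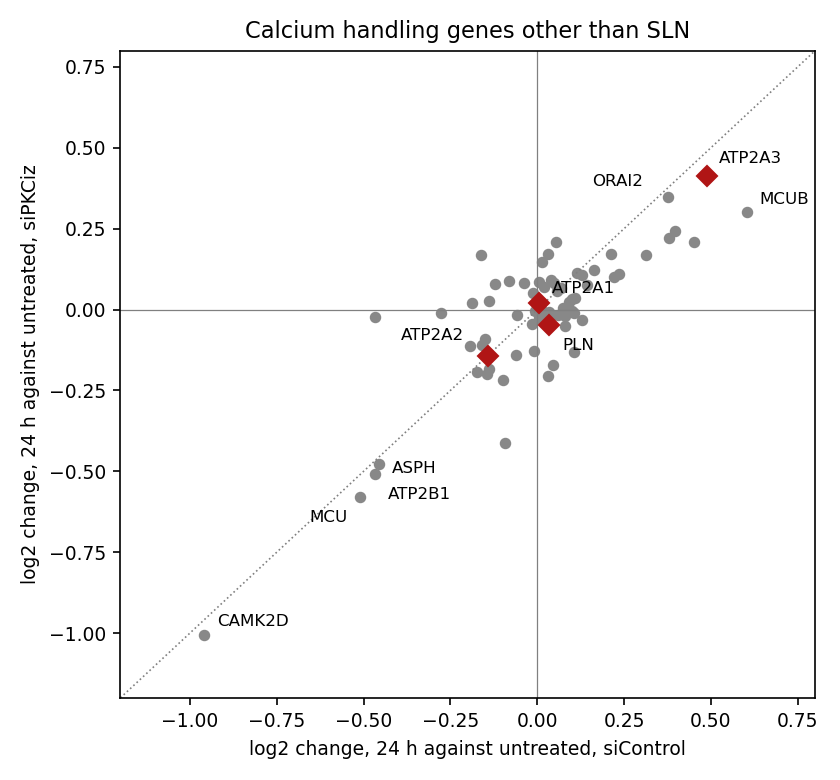
Log2 change at 24 h against untreated in siControl (horizontal) and siPKCiz (vertical) for the measured calcium handling genes other than SLN, with PLN and the SERCA pumps as red diamonds and the dotted line marking equal change. ATP2A3 lies at 0.49 and 0.41 and CAMK2D at -0.96 and -1.01, while PLN, ATP2A1 and ATP2A2 lie within 0.15 of 0 on both axes.

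Between the siRNA arms, 3 of the 67 calcium genes were higher and 9 lower in siPKCiz in the mean of the conditions (median -0.04 log2 units), where 11.8% and 8.17% of all genes were called. TMX1, a membrane thioredoxin of the reticulum known to act on SERCA2, was lower by 0.64 ± 0.076 (limma adjusted p = 1.41e-05). TMEM38B, a potassium channel of the reticulum that balances calcium release, was lower by 0.55 ± 0.074 (adjusted p = 4.11e-05). Both were also called in each of the 3 conditions taken alone. The other 7 lower genes were PRKACB, ORAI2, SARAF, SLC8A1, MICU3, CAMK2A and TRPC1, by 0.14 to 0.31. ARLN was higher in siPKCiz by 0.20 ± 0.055 (limma adjusted p = 0.0135), and CAMK2D and SLC8B1 by 0.29 and 0.19. The count of called calcium genes in this mean was 3 without replicate 2 and 17 without replicate 1 in every group. The share of all genes called was not taken with these arrays left out, so nothing particular to calcium genes is read from this.

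Markers of striated muscle, the tissue in which sarcolipin is best known, were read as a list. Of 32 measured markers, 24 to 26, depending on the group, were below the array median on every array of the group. The markers were not uniformly low: TNNT1 was the highest in every group, with log2 means from 9.36 to 9.66, above the array median. The summed intensity of the 32 lay between 4037 and 4185 in untreated siControl and between 3973 and 4441 at 24 h. In siPKCiz it lay between 3864 and 4065 in untreated cells and between 3994 and 4320 at 24 h. At 24 h 1 of the 32 was called higher and 1 lower in either arm, where 5.85% and 6.46% of all genes were called in siControl and 4.65% and 6.09% in siPKCiz. ACTC1, cardiac actin, rose by 1.67 ± 0.22 log2 units in siControl and 1.38 ± 0.22 in siPKCiz (limma adjusted p = 3.85e-05 and 0.00029), and MB, myoglobin, fell by 0.69 and 0.70 (adjusted p = 0.00285 and 0.00314). The part of ACTC1, or of cells that express it, in the SLN result was not tested. All 5 epithelial markers were above the array median in every group; 3 were called lower at 24 h in siControl and 2 in siPKCiz, to be read against the same shares of all genes. Of 4 leukocyte markers 1 was called lower in either arm, of 4 endothelial markers 0 were called, and of 5 fibroblast markers 1 was called higher in siControl and 2 in siPKCiz.

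Over the 18 arrays the genes whose log2 values correlated most with those of SLN were PDE11A, a cyclic nucleotide phosphodiesterase (Pearson r = 0.982), the basement membrane collagen genes COL4A2 (0.981) and COL4A1 (0.966), the protease inhibitor TIMP2 (0.980), P4HA3, a collagen prolyl hydroxylase (0.976), CCDC80 (0.970), VSTM4 (0.967), R3HDML (0.967), the collagen-binding integrin ITGA11 (0.966) and N-cadherin, CDH2 (0.964). The lowest were TM4SF4 (-0.986), TSPAN7 (-0.982), TMEM205 (-0.979), the carbonic anhydrase CA12 (-0.972) and complement C5 (-0.966). The points are the same 18 arrays in 6 groups, so all of these correlations share the steps between conditions. After the group means were subtracted, r was 0.945 for PDE11A and 0.902 for ITGA11, but 0.310 for CDH2. SLN strayed furthest from its group mean on 2 arrays of replicate 1. In untreated siControl it was 7.64 there against 8.84 and 8.96, and in siPKCiz at 24 h 12.66 against 11.66 and 11.88. How far these correlations rest on such arrays was not tested. The highest correlation of SLN with another of the 4 genes was with ATP2A3 (r = 0.670 over 18 arrays), and it was -0.260 after the group means were subtracted.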

How the data were processed

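The deposited values were used as the authors gave them: RMA intensity on a linear scale, 1 value per probe set and array, made with RMA and Partek per the submitters' processing notes (their versions, and a genome build, are not given in the sources used here). Since the analysis plan had assumed log2 values, log2 was taken once of the deposited intensity. Probe sets with 1 gene symbol were used, the brightest per gene, giving 18377 genes; all 18 arrays entered. Group means of the 6 groups were estimated per gene in limma 3.58.1 (R 4.3.3; 12 residual degrees of freedom, no trend or robust option). In each of 12 comparisons p-values were adjusted by Benjamini-Hochberg across the 18377 genes, with calls below 0.05. A ± is the standard error unless SD is given. The members, calcium lists and markers were chosen with earlier results of these data known. Named calcium genes were up to 4 called genes per list with the largest change. The fit was tested on simulated data. The alternatives were array weights, trend and robust moderation, quantile normalization, median centring, a replicate factor, only the arrays compared, a filter on dim probe sets, and leaving out arrays. With 3 arrays per group, their number limits the precision.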

Additional observations from a re-analysis of the deposited data

Results flagged for a closer look

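ATP2A2 at 8 h was looked at again because the arms moved in opposite directions: every siControl array at 8 h was below the mean of its untreated arrays and every siPKCiz array above, a difference of 0.14 ± 0.15 log2 units between the arms' changes. The test of this difference did not pass (limma adjusted p = 1), and the arrays of each comparison with untreated overlapped.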

How the results depend on the processing

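Of 1056 recomputations of the members' changes, 1022 stayed the same, 15 lost a call, 16 gained one, 3 moved by more than the spread and 0 reversed. Staying the same meant keeping the side of the threshold and the called direction. For the untested changes of SLN within siControl it meant moving by less than the SD within groups. Of the recomputations that stayed the same, 91 changed sign while uncalled in both. Leaving out arrays or replicate numbers, SLN at 24 h ranged from 3.25 to 3.94 log2 units in siControl and its 24 h step over 8 h in siPKCiz from 1.45 to 1.95; the siPKCiz difference in SLN ranged from -0.36 to 0.13. ATP2A3 at 24 h ranged from 0.41 to 0.54 in siControl and from 0.33 to 0.57 in siPKCiz, where it was 0.39 with median centring, 0.41 with the replicate block (adjusted p = 0.0667) and 0.41 with only the arrays compared (adjusted p = 0.055), and was called in none of these 3. The calcium gene counts, 9 and 12 at 8 h and 24 h in siControl and 4 and 5 in siPKCiz, ranged with arrays left out from 1 to 9, 3 to 11, 0 to 4 and 2 to 5, and under the other alternatives from 8 to 11, 9 to 13, 3 to 6 and 5 to 7. With arrays left out, the share of all genes called was not taken beside these counts. The numbers did not pair the samples: 7 of 45 same-number pairs had a correlation over 0.1, against 40 of 90 pairs with different numbers. For deviations from group means, the median r was -0.282 between arrays of number 1, 0.0033 for number 2 and -0.0576 for number 3. It was 0.0668 for different numbers. Arrays of replicate 1 thus tended to deviate in opposite ways between groups. Of 18 arrays, 0 were closest to an array of their own number, and the block took the calls at 24 h in siControl from 2262 to 1914. The filter on dim probe sets dropped 2 of the 5 genes, PLN and ATP2A1. No member had another probe set to try. Of the 10 genes most like SLN, 4 were among the 10 highest by Spearman and 1 after group means were subtracted. The cause of these changes was not tested. Background was not measured here; PLN and ATP2A1 lay below the array median throughout.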

Other observations

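The protein-coding genes next to each of the 5 genes, 3 on each side, were looked at after the data were seen. Those next to SLN on chromosome 11 are given first. Among all genes 12.3% were called at 24 h in siControl and 10.7% in siPKCiz. At 24 h ALKBH8 was higher by 0.70 log2 units in siControl and 0.58 in siPKCiz (limma adjusted p = 0.00161 and 0.00825), and SLC35F2 by 0.58 and 0.68 (adjusted p = 0.000534 and 0.000144). ELMOD1, directly beside SLN, was higher by 1.03 in siControl (limma adjusted p = 0.000353) and 0.23 in siPKCiz (adjusted p = 0.442). CWF19L2, RAB39A and CUL5 were not called in either arm. NCBP3, near ATP2A3, was higher by 0.38 in siControl and 0.33 in siPKCiz (limma adjusted p = 0.00242 and 0.00794). MCM9, near PLN, and IFT81, near ATP2A2, were called in siPKCiz only, at -0.28 and -0.50 (limma adjusted p = 0.0492 and 0.0306). The other measured neighbours of PLN and the pump genes were not called in either arm.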
